A study of Homo sapiens with 6 samples.

Results

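Ephrins and their Eph receptors were examined in MDA-MB-231, a long-established breast cancer line of the triple-negative class, labelled as basal. The list held 10 genes of the family, 5 ephrins (EFNA1, EFNA4, EFNA5, EFNB1 and EFNB2) and 5 receptors (EPHA2, EPHA4, EPHB2, EPHB3 and EPHB4), and each matched 1 of the 24108 rows of the table by its symbol. The genes were chosen by their place around EFNB2, whose raised level in these same samples was already known. The contrast that chose them is thus the one described, and their changes are given without p-values. Where a listed gene is said to pass or miss a threshold, that is a description and supports nothing further. RNA-seq of total RNA compared 3 shControl samples, transduced with an LKO short hairpin against luciferase, with 3 shZnf148 samples, transduced with a hairpin against ZNF148, a zinc finger transcription factor. Both groups carried lentivirus for 48 h and were then selected for 24 h in 0.5 µg/ml puromycin. Each arm rests on 1 hairpin in 1 cell line, so loss of ZNF148 and any other effect of that hairpin cannot be told apart. The labels number the replicates without saying that they were separate cultures, and p-values therefore measure only the spread between these samples.

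Ephrins are cell-surface ligands, and Eph receptors are the receptor tyrosine kinases that meet them on a neighbouring cell. Ephrin-A ligands are held in the membrane by a lipid anchor, whereas ephrin-B ligands cross it and carry a cytoplasmic tail. Contact therefore signals in both directions, forward into the cell with the receptor and in reverse into the cell with the ephrin. The outcome is often a change in adhesion, repulsion or movement. EphA receptors mostly bind ephrin-A ligands and EphB receptors ephrin-B ligands, but EPHA4 binds both classes and EPHB4 prefers ephrin-B2, the product of EFNB2. EPHA2 is a receptor widely known from breast carcinoma cells, and EFNB2 with EPHB4 is best known from the arterial and venous endothelium.

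The 250 bases upstream of the annotated starts of EFNB2, EPHB2 and EPHB4 are shown because the comparison turns on this ligand and on its most abundant EphB receptors, and because ZNF148 is known to bind runs of C or G. The sequences are RefSeq promoter windows of GRCh38.p14, written 5′ to 3′ on the strand of the gene. Capitals mark runs of 5 or more G or of 5 or more C (GGGGG or CCCCC) and the GC box core (GGGCGG or its reverse complement CCGCCC), so both strands were searched and a site could count for both motifs.
EFNB2 (chr13:106535663-106535912, minus strand): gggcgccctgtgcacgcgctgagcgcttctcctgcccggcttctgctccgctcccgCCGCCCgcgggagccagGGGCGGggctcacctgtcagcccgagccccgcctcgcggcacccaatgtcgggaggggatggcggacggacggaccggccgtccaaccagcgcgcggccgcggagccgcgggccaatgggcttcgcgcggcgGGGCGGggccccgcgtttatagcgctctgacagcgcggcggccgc
EPHB2 (chr1:22710589-22710838, plus strand): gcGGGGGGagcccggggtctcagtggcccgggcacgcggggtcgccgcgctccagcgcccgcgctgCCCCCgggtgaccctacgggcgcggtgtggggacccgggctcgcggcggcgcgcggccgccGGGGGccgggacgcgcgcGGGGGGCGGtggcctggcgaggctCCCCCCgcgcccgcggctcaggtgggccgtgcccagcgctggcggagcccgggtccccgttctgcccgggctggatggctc
EPHB4 (chr7:100827524-100827773, minus strand): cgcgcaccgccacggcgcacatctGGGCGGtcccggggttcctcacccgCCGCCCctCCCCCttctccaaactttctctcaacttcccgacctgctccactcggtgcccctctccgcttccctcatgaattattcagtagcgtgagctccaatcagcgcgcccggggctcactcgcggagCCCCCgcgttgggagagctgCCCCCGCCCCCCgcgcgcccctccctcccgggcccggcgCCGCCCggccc
The EFNB2 window held 3 GC box cores and no run of 5 G or C. The EPHB2 window held 5 runs and 1 core, and the EPHB4 window 4 runs and 4 cores. All 10 genes had a window, of which 7 held at least 1 run and 10 at least 1 core. Of all 35116 windows, 55.3% held a run and 42.6% a core, and among the 12454 windows of tested genes these shares were 66.9% and 64.1%. These letter matches describe the windows and are not binding sites.

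Values are FPKM, fragments scaled to transcript length and library size, so that levels of genes of different length can be set side by side. The read number behind them is unknown, and the annotated lengths are not given in the sources used here. The order of different genes with close values is therefore uncertain. Steps between low values put the depth of the other samples at 0.806 to 1.13 of that of shControl replicate 1, with the lowest in shZnf148 replicate 3. The targeted gene ZNF148 was at 3.72, 4.36 and 4.30 FPKM in shControl and at 0.914, 0.282 and 0.834 FPKM in shZnf148. It fell by 1.63 on the log2 scale (standard error 0.18, with an adjusted p of 0.0099 by limma and Benjamini-Hochberg adjustment), and this adjusted p was 0.0603 without shControl replicate 1 and 0.0568 without shControl replicate 3. The line's markers VIM, CD44, CAV1, MSN, ANXA1 and KRT18 were at 121 to 1842 FPKM. The luminal genes ESR1, PGR, CDH1 and FOXA1 were at or near 0 (at most 0.491 FPKM), whereas GATA3 and EPCAM, also listed as low or absent in this line, were at 7.53 to 11.1 FPKM. shZnf148 replicate 2 had the lowest ZNF148 and stood apart from the other shZnf148 samples in several of the genes below, and fold changes that move by more than 1.5 times without it are given both ways.

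EFNB2 was the listed ephrin whose level differed most between the groups. In the order of replicates 1, 2 and 3, used for every gene here, its FPKM was 7.93, 9.67 and 7.18 in shControl and 16.4, 18.7 and 16.4 in shZnf148. All 3 shZnf148 samples lay above all 3 shControl samples. The mean was 8.26 ± 1.27 (SD, n = 3) in shControl and 17.1 ± 1.32 (SD, n = 3) in shZnf148, a ratio of means of 2.07. Fold changes below are differences of log2(FPKM + 1), which understate the change of low genes, and on that scale EFNB2 was higher by 0.98 (standard error 0.12). In bulk RNA a higher level per cell and a larger share of cells with the transcript cannot be told apart. In GENCODE release 44 (GRCh38) the EFNB2 gene spans chr13:106489745-106535662, minus strand, and in that annotation it overlaps 1 lncRNA on its own strand and 1 on the other. lncRNAs on the opposite strand also overlap EPHA2, EPHA4 and EPHB2, and whether the libraries kept strand is not given in the sources used here, so reads of such partners could not be told apart.

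A row was called when limma's adjusted p was under 0.05 and the change exceeded 1.5-fold. Over the 11777 tested rows, those averaging 1 FPKM or more, 216 were called higher in shZnf148 (1.83%) and 431 lower (3.66%). EFNB2 was called higher, at rank 55 of the 216 by size of change and rank 137 of all tested rows. With 1 sample left out its log2 fold change stayed between 0.89 and 1.08, but the call was lost without shControl replicate 1 (0.95) and without shControl replicate 3 (0.89). Since EFNB2 led to the choice of the list, its call is a description and supports nothing further.

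The second ephrin-B ligand on the list, EFNB1, was low. It was at 1.72, 1.74 and 1.57 FPKM in shControl and at 1.84, 0.963 and 1.34 FPKM in shZnf148, with a log2 fold change of -0.19 (standard error 0.16). The groups overlapped, with shZnf148 replicate 1 the highest of all 6 samples and replicate 2 the lowest, and the log2 fold change was -0.32 without the former and -0.06 without the latter. Summed ephrin-B ligands (EFNB1, EFNB2 and EFNB3) were 11.3 ± 1.45 FPKM (SD, n = 3) in shControl and 19.3 ± 0.761 FPKM (SD, n = 3) in shZnf148. EFNB2 made up 69.8%, 76.3% and 73.5% of this sum in shControl and 86.2%, 92.6% and 87.4% in shZnf148, so it was the main ephrin-B transcript in every sample of both groups.

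The ephrin-A ligands showed no comparable shift. EFNA4 was at 9.44, 9.56 and 9.48 FPKM in shControl and at 10.7, 15.3 and 8.49 FPKM in shZnf148. The shControl values were almost equal, while the shZnf148 values spread on both sides of them. Its log2 fold change of 0.21 (standard error 0.19) became 0.01 without shZnf148 replicate 2 and 0.39 without shZnf148 replicate 3.

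EFNA1, first described as a gene induced by tumour necrosis factor in endothelial cells, was at 7.57, 5.53 and 8.20 FPKM in shControl and at 6.51, 6.33 and 5.60 FPKM in shZnf148. These values overlapped, and the log2 fold change was -0.17 (standard error 0.14), or -0.32 without shControl replicate 2, -0.07 without shControl replicate 3 and -0.11 without shZnf148 replicate 3. EFNA5, a ligand known from axon guidance, was at 6.61, 6.50 and 6.04 FPKM in shControl and at 5.51, 5.67 and 4.79 FPKM in shZnf148. All shZnf148 values of EFNA5 lay below all shControl values, with a log2 fold change of -0.23 (standard error 0.09) that did not pass an adjusted p of 0.05. The summed ephrin-A ligands were 28.6 ± 1.72 FPKM (SD, n = 3) in shControl and 29.3 ± 4.70 FPKM (SD, n = 3) in shZnf148.

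The order of the ligands changed with EFNB2. In shControl the means ran EFNA4 (9.50 FPKM), EFNB2 (8.26), EFNA1 (7.10) and EFNA5 (6.38), and each of these neighbours overlapped with the next. In shZnf148 EFNB2 came first at 17.1 FPKM, and its lowest sample lay above the highest of EFNA4, which followed at 11.5 FPKM. EFNA1 (6.15 FPKM), EFNA3 (5.81) and EFNA5 (5.32) came next and overlapped with their neighbours in that order.

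Among the receptors that bind ephrin-B2, EPHB2 and EPHB4 carried nearly all of the transcript. EPHB2, a receptor known from axon guidance and from cell positioning in the intestinal crypt, was at 26.9, 28.7 and 26.7 FPKM in shControl and at 20.9, 17.0 and 20.3 FPKM in shZnf148. All 3 shZnf148 samples lay below all 3 shControl samples. The log2 fold change was -0.49 (standard error 0.09), which passed an adjusted p of 0.05 but stayed under 1.5-fold. It no longer passed without any 1 of the shControl replicates (-0.50, -0.45 and -0.50 without replicates 1, 2 and 3) or without shZnf148 replicate 1 (-0.54). As with EFNB2, this describes a gene chosen on the same contrast and supports nothing further.

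EPHB4, the receptor that pairs with ephrin-B2 between venous and arterial endothelium, was at 24.9, 23.5 and 20.7 FPKM in shControl and at 22.7, 30.1 and 30.1 FPKM in shZnf148. shZnf148 replicate 1 lay within the shControl range and the other two above it. The log2 fold change was 0.25 (standard error 0.13), or 0.38 without shZnf148 replicate 1, and did not pass. In the annotation the start of EPHB4 overlaps SLC12A9 on the opposite strand. SLC12A9 was at 5.11 to 5.88 FPKM in shControl and at 4.53 to 5.45 FPKM in shZnf148.

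EPHB3 and EPHA4 were scarce. EPHB3 was at 1.14, 0.717 and 1.25 FPKM in shControl and at 0.988, 0.500 and 0.658 FPKM in shZnf148, with overlapping groups. EPHA4, the EphA receptor that also takes ephrin-B ligands, was at 0.219, 0.301 and 0.295 FPKM in shControl and at 0.533, 1.04 and 0.566 FPKM in shZnf148. Every shZnf148 value of EPHA4 lay above every shControl value, with means of 0.272 ± 0.046 in shControl and 0.715 ± 0.286 in shZnf148 (SD, n = 3 each). Both genes averaged under 1 FPKM and were not tested. In a fit without that filter the log2 fold changes were 0.42 (standard error 0.12) for EPHA4, or 0.29 without shZnf148 replicate 2, and -0.25 (standard error 0.15) for EPHB3, or -0.16 without shZnf148 replicate 2. Neither was called there.

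The total of these receptors differed less between the groups than its make-up. EphB receptors and EPHA4 summed to 51.8 ± 2.46 FPKM (SD, n = 3) in shControl and to 48.5 ± 3.27 FPKM (SD, n = 3) in shZnf148. EPHB2 made up 53.0% ± 2.10 of the sum in shControl and 40.2% ± 5.76 in shZnf148, and EPHB4 44.4% ± 2.30 and 56.8% ± 5.90 (SD, n = 3 each). EPHB3 and EPHA4 together made up 2.54% in shControl and 2.97% in shZnf148. The ratio of EPHB4 to EPHB2 was 0.923, 0.820 and 0.772 in shControl and 1.09, 1.77 and 1.48 in shZnf148. By FPKM, EPHB2 was thus the higher of this pair in each shControl sample and EPHB4 in each shZnf148 sample. With ratios as near to equal as 0.923 and 1.09, that order depends on the annotated lengths behind the FPKM.

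Set against its receptors, EFNB2 was the scarcer transcript in shControl. The ratio of EFNB2 to EPHB4 was 0.319, 0.411 and 0.348 in shControl and 0.721, 0.620 and 0.543 in shZnf148. The ratio of EFNB2 to EPHB2 was 0.294, 0.337 and 0.269 in shControl and 0.783, 1.10 and 0.806 in shZnf148. Only in shZnf148 replicate 2 did EFNB2 exceed EPHB2, and in no sample did it exceed EPHB4. Against the sum of EphB receptors and EPHA4 the ratio was 0.159 ± 0.019 in shControl and 0.354 ± 0.034 in shZnf148 (SD, n = 3 each). These are ratios of transcripts, not of proteins at the cell surface.

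EPHA2, the main receptor of the ephrin-A ligands here, was the most abundant Eph receptor in all 6 samples. It was at 102, 89.9 and 101 FPKM in shControl and at 110, 169 and 107 FPKM in shZnf148. All shZnf148 values lay above all shControl values, but shZnf148 replicates 1 and 3 by little. The log2 fold change was 0.36 (standard error 0.18), did not pass, and became 0.15 without shZnf148 replicate 2. EPHA2 made up 99.4% of the summed EphA transcript in shControl and 99.2% in shZnf148.

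In the order of receptors, EPHA2 (97.7 FPKM), EPHB2 (27.5), EPHB4 (23.0) and EPHB3 (1.04) followed each other in shControl without overlap. In shZnf148 the order was EPHA2 (129 FPKM), EPHB4 (27.6) and EPHB2 (19.4), again without overlap, and then EPHB3 and EPHA4, which were nearly equal at 0.715 FPKM each.

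Over the list, 8 of the 10 genes passed the filter on low values and were tested. EFNB2 was called higher and EPHB2 passed the adjusted p alone, while the other 6 did not pass. Of all tested rows, 5.46% passed an adjusted p of 0.05 in the higher direction and 8.13% in the lower. The groups did not overlap for EFNB2 and EPHA2 on the higher side and for EFNA5 and EPHB2 on the lower side, beside 20.0% and 21.0% of all tested rows. The median log2 fold change of the 8 genes was 0.02 and that of all tested rows 0.01. Nothing is read from these counts, because the list was drawn up on the same contrast.

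**Figure D1:**
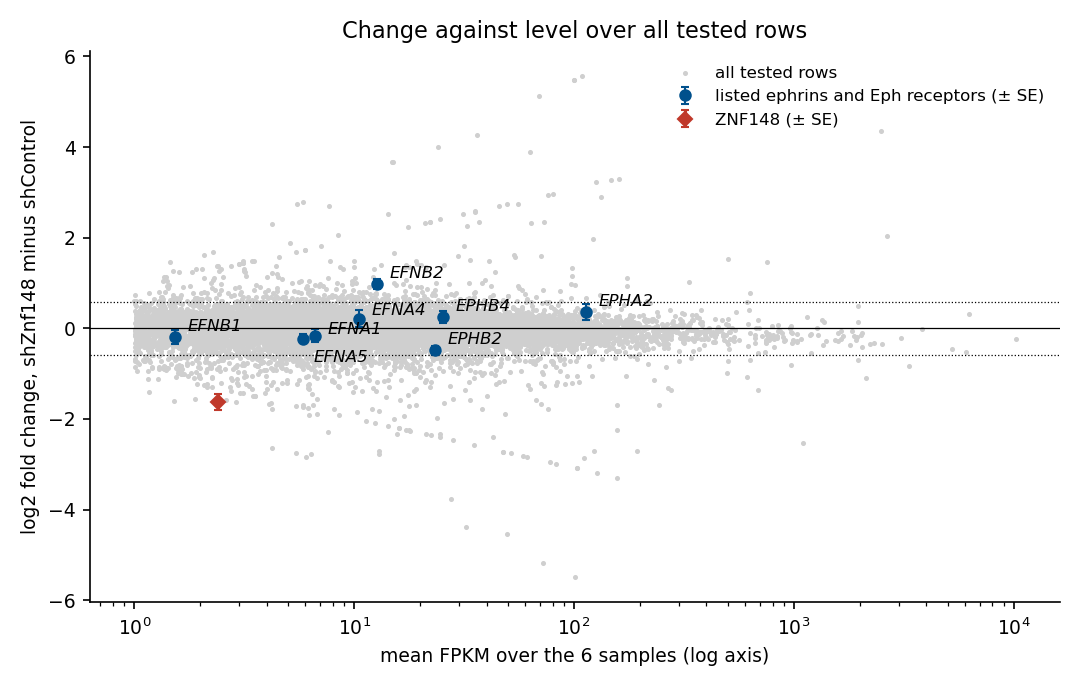
Log2 fold change of shZnf148 against shControl (vertical axis) and mean FPKM over the 6 samples (horizontal, log axis) for all 11777 tested rows in grey, with the 8 tested ephrins and Eph receptors and ZNF148 marked with their standard errors. Dotted lines mark 1.5-fold, and EFNB2 at 0.98 is the marked ephrin or receptor outside them.

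The rest of the family added few partners. Of the 12 other ephrin and Eph genes, 2 passed the filter on low values. EFNA3, the neighbour of EFNA4 and EFNA1 on chromosome 1, was at 4.73 to 5.77 FPKM in shControl and at 4.96 to 6.56 FPKM in shZnf148 (log2 fold change 0.16, adjusted p = 0.406 from limma). Its fold change was 0.08 without shZnf148 replicate 2 and 0.25 without shZnf148 replicate 1. A readthrough transcript joins EFNA4 and EFNA3 in the annotation, and how fragments shared by such transcripts were divided is not given in the sources used here. EFNB3, the remaining ephrin-B ligand, was at 1.71, 1.26 and 1.03 FPKM in shControl and at 0.790, 0.532 and 1.02 FPKM in shZnf148. The values of EFNB3 did not overlap, by a narrow margin, and its log2 fold change of -0.39 (standard error 0.17) had an adjusted p of 0.167. With limma, 0 of these 2 genes were called and 0 had an unadjusted p under 0.05. Of all tested rows, 1.83% were called higher and 3.66% lower, and 16.0% and 17.8% had an unadjusted limma p under 0.05.

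Among the genes under the filter, EFNA2 was at 0.319 to 0.715 FPKM over the 6 samples and EPHA10 at 0.076 to 0.338 FPKM. EPHA1, EPHA3, EPHA5, EPHA8 and EPHB6 were at 0.110 FPKM or less in every sample. EPHA6, EPHA7 and EPHB1 were listed at 0 in all 6 samples, and EPHB1 is a further receptor of ephrin-B ligands.

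The 5 tested rows whose pattern over the 6 samples was nearest to that of EFNB2 were RWDD2B, SORL1, ZNF45, PPP2R1B and EHD1. Nearness was the root-mean-square difference of log2(FPKM + 1) after each row's mean was removed, over 11776 rows. It was 0.078 for RWDD2B and 0.120 for EHD1, the fifth. RWDD2B was at 5.53, 5.97 and 4.26 FPKM in shControl and at 10.6, 12.0 and 11.8 FPKM in shZnf148. The search returned rows with a group difference like that of EFNB2 by construction.

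Forward signalling runs from the receptor through adaptors, Src and Abl family kinases, and regulators of the actin cytoskeleton. Of 35 such partners, listed from general knowledge of the pathway but with earlier results of these data known, 31 were tested. With limma, 2 were called lower and 0 higher, beside 3.66% and 1.83% of all tested rows. An unadjusted limma p under 0.05 was found for 12 in the lower direction and 5 in the higher. That was 38.7% and 16.1%, beside 17.8% and 16.0% of all tested rows. The median log2 fold change of the 31 was -0.05, beside 0.01 over all tested rows.

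FYN, a Src family kinase that acts below Eph receptors and phosphorylates ephrin-B tails, was at 14.3, 18.2 and 14.3 FPKM in shControl and at 8.26, 5.91 and 8.53 FPKM in shZnf148. The groups did not overlap, and FYN fell by 0.96 on the log2 scale (standard error 0.15, adjusted p = 0.0187 from limma). The adjusted p was 0.0809, 0.0563 and 0.0696 without shControl replicates 1, 2 and 3, so the call was lost each time. GRB7, an adaptor that binds activated receptor tyrosine kinases, was at 5.99, 3.78 and 6.85 FPKM in shControl and at 2.24, 2.84 and 2.16 FPKM in shZnf148. GRB7 fell by 0.91 (standard error 0.20, adjusted p = 0.0332 from limma). Its call was lost without shControl replicate 1 (adjusted p = 0.122), shControl replicate 3 (0.104), shZnf148 replicate 1 (0.0823) or shZnf148 replicate 3 (0.071).

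A further 9 forward partners passed the adjusted p with changes under 1.5-fold on the log2(FPKM + 1) scale. They are named here after their values were seen. With FYN and GRB7 this made 3 higher and 8 lower of the 31, beside 5.46% and 8.13% of all tested rows. ABL1 (0.28) and ROCK2 (0.32), kinases that act on the actin cytoskeleton, were higher in shZnf148, with adjusted p-values from limma of 0.0295 and 0.0252. PIK3R1 (0.51, adjusted p = 0.0415 from limma), a regulatory subunit of phosphoinositide 3-kinase, was also higher. It averaged 1.61 FPKM in shControl and 2.70 FPKM in shZnf148, a ratio of means of 1.68. With a pseudocount of 0.1 FPKM it was called higher (0.72, adjusted p = 0.0439 from limma). The GTPases RHOA (-0.23) and RAC1 (-0.40) and the kinases PAK1 (-0.32), PTK2 (-0.31) and ABL2 (-0.34) were lower, as was INPPL1 (-0.42), a phosphatase that binds EPHA2. Their adjusted p-values from limma lay between 0.0219 for RAC1 and 0.0444 for RHOA. Each of the 9 lost this status when any 1 shControl replicate was left out, and their highest adjusted p over the alternatives lay between 0.0914 for RAC1 and 0.157 for RHOA.

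Reverse signalling runs from the ephrin-B tail through adaptors and PDZ domain proteins. Of 12 such partners 10 were tested, and with limma 0 were called, beside 1.83% of all tested rows called higher and 3.66% lower. An unadjusted limma p under 0.05 was found for 1 of the 10 in the higher direction and 3 in the lower. Of all tested rows, 16.0% and 17.8% had such a p. The adjusted p was under 0.05 for 1 in the higher direction and 0 in the lower, beside 5.46% and 8.13% of all tested rows. RGS3, which binds the ephrin-B tail and regulates signalling by G protein-coupled receptors, passed the adjusted p and was named after its values were seen. It was at 15.8, 14.7 and 15.1 FPKM in shControl and at 22.9, 26.6 and 19.1 FPKM in shZnf148, higher by 0.55 (standard error 0.12, adjusted p = 0.0331 from limma). The groups did not overlap. This adjusted p was 0.107, 0.091 and 0.106 without shControl replicates 1, 2 and 3 and 0.0816 without shZnf148 replicate 1, and RGS3 was called without shZnf148 replicate 3 (0.66, adjusted p = 0.0281).

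CXCR4, the chemokine receptor whose signalling ephrin-B and RGS3 can modulate, had the largest change of the reverse partners. It was at 10.8, 9.87 and 11.7 FPKM in shControl and at 6.55, 3.00 and 6.72 FPKM in shZnf148, without overlap. Its log2 fold change was -0.94 (standard error 0.25) and the adjusted p of 0.0555 from limma missed the threshold. Without shZnf148 replicate 2, the lowest sample, it was -0.63 with an adjusted p of 0.0155 from limma, which would be called. CXCR4 was called in 1 of the 6 fits with a sample left out and in 2 of all 15 alternatives. Its highest adjusted p from limma was 0.155, without shControl replicate 1.

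Ephrins and Eph receptors are cut from the cell surface by proteases such as ADAM10, processed by gamma-secretase, and turned over through Cbl ubiquitin ligases and phosphatases. Of 17 genes of this group 16 were tested, and with limma 0 were called or passed the adjusted p. Of all tested rows, 1.83% were called higher and 3.66% lower, and 5.46% and 8.13% passed the adjusted p. An unadjusted limma p under 0.05 was found for 2 in each direction, or 12.5% each, beside 16.0% and 17.8% of all tested rows. ADAM10, the main ephrin sheddase, was at 75.3, 79.6 and 77.1 FPKM in shControl and at 76.0, 66.0 and 78.4 FPKM in shZnf148, with overlapping groups. CBLB, a ubiquitin ligase, showed the largest change, from 4.68 to 5.82 FPKM in shControl to 6.49, 12.8 and 5.89 FPKM in shZnf148 (log2 fold change 0.50, standard error 0.26, adjusted p = 0.23 from limma). The CBLB value rested on shZnf148 replicate 2, and without it the log2 fold change was 0.18.

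Because EFNB2 and EPHB4 are best known from endothelium, 10 endothelial markers were read in the same samples. PECAM1, CDH5, KDR, VWF, TEK, TIE1 and FLT1 were at 0.475 FPKM or less in every sample, and EMCN and ERG were listed at 0 in all 6. These 9 markers summed to between 0.352 and 0.727 FPKM per sample. ESAM, a junctional adhesion molecule, was the exception at 36.3 to 40.4 FPKM in shControl. It was at 13.7, 4.79 and 10.3 FPKM in shZnf148 (log2 fold change -1.99, standard error 0.32, adjusted p = 0.0182 from limma), opposite in direction to EFNB2. The ESAM call was lost without any 1 of the shControl replicates, with adjusted p-values of 0.0839, 0.0585 and 0.0708 without replicates 1, 2 and 3.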

How the data were processed

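RNA-seq of 3 shControl and 3 shZnf148 samples was analysed from 1 deposited table of normalised FPKM, which the authors made before deposition. Per the labels, the submitters' processing notes name bcl2fastq 2.17.1.14, TopHat2 2.0.14, Cufflinks 2.2.1 and Cuffnorm 2.2.1 with the builds hg18 and hg19, without roles, whereas the paper's methods name Salmon, DESeq2 and GRCh38. Annotation and scaling options are not given in the sources used here, and FPKM of an ambiguous transcript depends on them. Counts were not recovered, so no count model was run.

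Values were fitted as log2(FPKM + 1) by limma (version 3.58.1, R 4.3.3) on the 11777 rows averaging 1 FPKM or more. The model held the condition alone and a mean-variance trend, with Benjamini-Hochberg adjustment over these rows. Calls needed an adjusted p under 0.05 and a change above 1.5-fold. A gene listed in several rows was represented by its most abundant one. The genes, the lists and the thresholds were chosen with earlier results of these data known. The named genes were all listed genes, ZNF148, the other ephrin and Eph genes, the called genes and the largest change of each partner list, and the 5 rows nearest to EFNB2. ADAM10, SLC12A9, the cell type markers and the partners that passed the adjusted p alone were named besides these. Positions came from GENCODE release 44 (GRCh38), and promoter windows from RefSeq. Alternatives covered the pseudocount, filter, scaling, variance trend, replicate block, summed rows and each sample left out. The fit was also run on simulated data, from which nothing is read here. Other steps ran in Python 3.11.15 (numpy 2.4.6, pandas 2.3.3, matplotlib 3.10.9).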

Additional observations from a re-analysis of the deposited data

How the results depend on the processing

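No listed ephrin or Eph receptor changed direction under any of the alternatives tried, nor did any named partner that was followed through them. ADAM10 was not followed through the alternatives. EFNB2 stayed higher in shZnf148 in all 15, by 0.74 to 1.08 on the log2 scale, and was called in 13. With 1 sample left out its log2 fold change ranged from 0.89 to 1.08 and it was called in 4 of 6 fits, the exceptions being those without shControl replicate 1 or replicate 3. The number of called rows was 76 higher and 204 lower with a pseudocount of 5 FPKM. With 1 sample left out it ranged from 3 to 222 higher and from 26 to 397 lower, lowest without shControl replicate 1. The remaining settings other than the replicate block kept both counts within 1.5 times of 216 and 431.

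The correlations of same-numbered deviations were 0.001, -0.088 and 0.030, beside -0.085 to 0.083 for samples with different numbers. With 3 samples per group this cannot decide whether the numbers mark shared handling, which the labels do not state. With a replicate block, 99 rows were called higher and 216 lower, EFNB2 was still called, and FYN, GRB7, the 9 further forward partners, RGS3 and EPHB2 no longer passed the adjusted p. GRB7 was called in 7 of 14 alternatives, and SORL1 in 11 of 14. The pseudocount set the size of the change of the scarce EPHA4, which was 1.09 with 0.1 FPKM and 0.12 with 5 FPKM. Read depth is unknown, so the precision of values under 1 FPKM, such as EPHA4 and EPHB3, cannot be stated. A filter at 5 FPKM gave no value for genes under it.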
